A study of Homo sapiens with 8 samples.

Results

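In U-937 cells, 6837 regions of open chromatin were called after DMSO and after Corin, and in neither of the groups that received all-trans retinoic acid (ATRA). They were 6837 of 161291 regions, 4.24%, formed by merging overlapping peaks of 4 peak lists over the autosomes, X and Y. Each was chosen by its calls, which are measured values: peaks of the DMSO and of the Corin list overlapped it, and no peak of the ATRA list or of the list for ATRA with Corin did. They are called ATRA-absent regions here. Absence means that no peak was called, and the lists hold no signal value for a region without a peak, so that a closed site and a site just under the calling limit cannot be told apart.

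The study treated U-937, an established human monocytic cell line, for 24 h. The 4 groups received DMSO, read here as the vehicle without compound although the labels print the same dose for it, ATRA at 0.1 µM, Corin at 0.1 µM, or ATRA at 0.1 µM with Corin at 0.1 µM, the last called the combination. Each group had 2 samples, 8 in all, and the authors combined both samples of a group into 1 peak list. The spread between replicates is therefore unknown, treatments were not tested against each other, and all results are from 1 cell line.

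ATAC-seq uses a transposase that inserts sequencing adapters into accessible DNA, so that peaks mark promoters, enhancers and other sites bound by regulatory proteins. ATRA is the ligand of the retinoic acid receptors, which bind DNA with RXR partners and exchange co-repressors for co-activators when ligand binds, and it drives differentiation of several myeloid leukaemia cells. Corin inhibits both the histone demethylase and the histone deacetylase activity of CoREST, a co-repressor complex. AP-1 is the family of FOS and JUN dimers, activated by growth and stress signalling, and PU.1 is the ETS factor that directs myeloid and lymphoid development.

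The sequences of the strongest ATRA-absent regions show the site that recurred most among them, the AP-1 consensus, TGACTCA or its reverse complement TGAGTCA. Windows of 200 bp around the DMSO summit, the point of highest signal, are given 5′ to 3′ on the plus strand of hg38, with AP-1 matches in capitals. The first 6 windows hold a match, and the last 2 are shown because they are as strong and hold none.
COBL intron, chr7:51123741-51123940: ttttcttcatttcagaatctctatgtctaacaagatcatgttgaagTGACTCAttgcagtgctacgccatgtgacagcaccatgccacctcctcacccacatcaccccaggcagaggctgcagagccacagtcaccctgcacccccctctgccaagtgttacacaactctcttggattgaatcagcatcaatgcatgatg
KLHL14 upstream, chr18:32921528-32921727: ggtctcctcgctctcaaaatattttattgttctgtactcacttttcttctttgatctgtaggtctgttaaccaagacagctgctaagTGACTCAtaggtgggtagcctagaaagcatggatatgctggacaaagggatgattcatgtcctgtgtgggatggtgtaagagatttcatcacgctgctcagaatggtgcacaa
CXCL6 upstream, chr4:73816891-73817090: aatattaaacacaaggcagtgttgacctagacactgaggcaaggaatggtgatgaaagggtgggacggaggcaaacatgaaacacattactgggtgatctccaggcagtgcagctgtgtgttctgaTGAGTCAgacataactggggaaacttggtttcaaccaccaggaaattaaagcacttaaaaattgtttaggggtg
IL1RAP intron, chr3:190585898-190586097: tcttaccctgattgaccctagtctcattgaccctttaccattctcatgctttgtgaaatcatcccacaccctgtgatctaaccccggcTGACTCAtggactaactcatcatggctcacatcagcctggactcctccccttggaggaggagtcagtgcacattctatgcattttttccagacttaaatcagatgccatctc
TSNAX upstream, chr1:231487118-231487317: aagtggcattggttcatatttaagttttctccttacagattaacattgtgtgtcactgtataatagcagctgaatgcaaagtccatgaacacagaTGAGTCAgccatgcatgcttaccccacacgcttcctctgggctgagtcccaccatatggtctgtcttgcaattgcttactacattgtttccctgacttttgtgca
PAX8 promoter, chr2:113234254-113234453: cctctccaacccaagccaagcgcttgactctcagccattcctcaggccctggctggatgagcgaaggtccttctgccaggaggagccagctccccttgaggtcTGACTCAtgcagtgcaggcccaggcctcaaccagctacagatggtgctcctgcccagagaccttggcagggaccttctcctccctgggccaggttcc
DGKG intron, chr3:186181131-186181330: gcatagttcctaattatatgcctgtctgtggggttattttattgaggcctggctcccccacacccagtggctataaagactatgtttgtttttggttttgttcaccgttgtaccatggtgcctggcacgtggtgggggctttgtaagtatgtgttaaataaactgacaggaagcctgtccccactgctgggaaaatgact
UMAD1 and RPA3 promoter, chr7:7719345-7719544: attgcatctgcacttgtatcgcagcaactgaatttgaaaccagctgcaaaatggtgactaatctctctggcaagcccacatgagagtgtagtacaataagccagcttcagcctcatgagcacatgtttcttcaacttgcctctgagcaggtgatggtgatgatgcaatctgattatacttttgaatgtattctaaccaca

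In 4 of these 6 windows the AP-1 match was centred within 10 bp of the summit, at -10 bp upstream of KLHL14, -9 bp in IL1RAP, -2 bp near TSNAX and 6 bp at PAX8. It lay 29 bp from the summit in the region near CXCL6 and -51 bp in COBL. Of the 20 strongest ATRA-absent regions, 12 held an AP-1 match, and of the strongest 100, 65 did. Strength here is the lower of a region's 2 percentile ranks, by the highest −log10 p of its peaks, among the merged regions of the DMSO and of the Corin list.

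The strongest ATRA-absent region lay in an intron of COBL, which encodes an actin nucleator, at chr7:51123336-51124236. The authors' peak caller gave it a −log10 p of 344 and a fold over local background of 19.1 with DMSO, and 585 and 23.7 with Corin. It stood at percentile 86.1 of the DMSO list and 91.6 of the Corin list, while the nearest regions called with ATRA and with the combination were 17209 and 17073 bp away. A second region, in an intron of LZTS1, a leucine zipper gene, at chr8:20281908-20282604, had a −log10 p of 330 with DMSO and 280 with Corin. Of all ATRA-absent regions, only these 2 stood in the strongest 20% of both lists.

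Most of the other named regions lay in introns or between genes. An intronic region of IL1RAP, the co-receptor for interleukin 1, at chr3:190585644-190586471 had a −log10 p of 128 with DMSO and 286 with Corin. The region at chr4:73816506-73817551 lay 19089 bp upstream of the start of CXCL6, a neutrophil chemokine, with 188 and 166. A region at chr2:136327415-136327852, 208238 bp upstream of the chemokine receptor gene CXCR4, had 100 with DMSO and 328 with Corin, on the −log10 p scale of each list. Each of these held an AP-1 match. The nearest gene start is given only as a position, and no link between a region and a gene was measured.

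PAG1, a membrane adaptor that recruits the kinase CSK, held an intronic region with a −log10 p of 143 with DMSO and 245 with Corin. An intronic region of DGKG, a diacylglycerol kinase gene, at chr3:186180917-186181506 had 158 and 220, and no AP-1 match. GRB10, an adaptor of receptor tyrosine kinases, held one with 106 and 272, and CSNK2A1, a catalytic subunit of casein kinase, one with 102 and 165. At an annotated start of RPS6KA1, which encodes a kinase downstream of ERK, the values were 141 and 112.

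Promoters at the top of the order were those of UMAD1 with RPA3, PAX8 and RPS6KA1. The UMAD1 region at chr7:7719138-7719752, 531 bp upstream of the start of RPA3, a subunit of the replication protein A complex, had a −log10 p of 147 with DMSO and 248 with Corin. Its nearest ATRA region was 488 bp away and its nearest combination region 37361 bp away. The PAX8 region, at a developmental transcription factor gene, had 113 and 138. The remaining named regions lay in introns of SMG5, HDAC7 and COL14A1, in an exon of IFITM10, 306148 bp downstream of the start of HLX, 108641 bp upstream of CTDP1, 148126 bp upstream of KLHL14 and 40988 bp upstream of TSNAX. All 20 stood at percentile 65.8 or higher in both lists.

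Most ATRA-absent regions were far weaker than these. On the −log10 p scale of the DMSO list their lowest value was 2.79, their median 9.02 and their highest 344, and on that of the Corin list 2.01, 8.18 and 585. The authors' fold over local background had a median of 2.66 with DMSO, from 1.37 to 19.1, and of 2.55 with Corin, from 1.35 to 23.7. The median percentile was 18.9 in the DMSO list and 19.0 in the Corin list. In both lists 2740 regions, 40.1%, stood in the weakest 20%, and 166, or 2.43%, stood in the stronger 50%. The pileup at the strongest peak, solved from p and fold, had a median of 47.0 with DMSO and 44 with Corin. Median width was 562 bp, against 897 bp for the 66303 regions called in all 4 lists and 413 bp for the 8298 called with DMSO and ATRA only.

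Of the 81511 regions called with both DMSO and Corin, the ATRA-absent ones were 8.39%. Those not called with ATRA were 10790, or 13.2%, and those not called with the combination 11255, or 13.8%. These shares are set by the rule, and nothing is read from them. Among these 81511 regions, the share called in neither ATRA list was lower in each stronger class of the lower rank, in steps of 10 percentile points. It was 55.3% (2641 of 4777, 95% Wilson interval 53.9 to 56.7) below percentile 10, 33.6% from 10 to 20 and 16.2% from 20 to 30. It was 3.58% between percentiles 40 and 50, and none of the 9324 regions from 90 to 100 was ATRA-absent, which allows a share of up to 0.0412% by the Wilson interval. All intervals given here cover counting error over regions only, and neighbouring regions share their libraries.

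**Figure D1:**
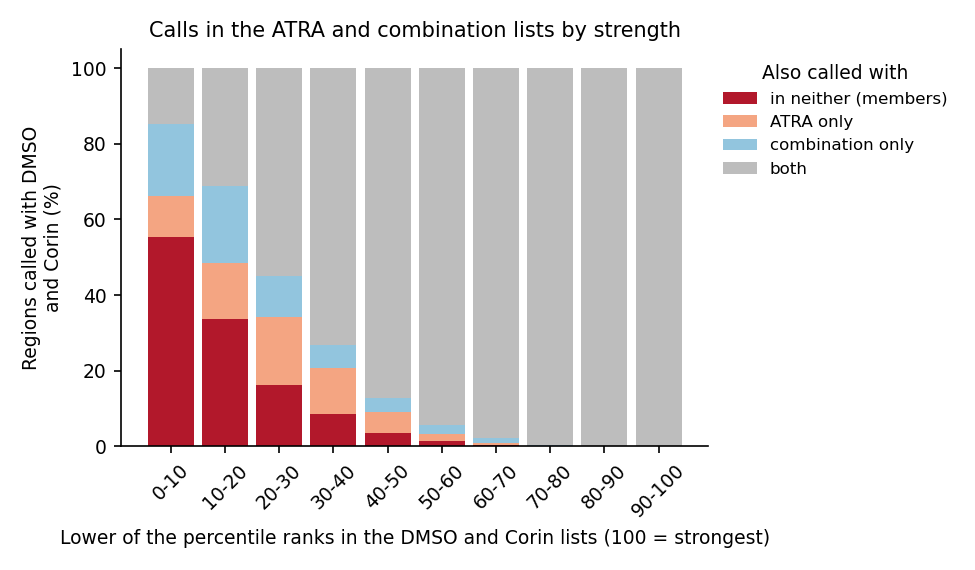
Stacked bars give the percent of regions called with DMSO and Corin that were also called with both ATRA treatments, with ATRA only, with the combination only or with neither, by classes of 10 percentile points of the lower rank in the DMSO and Corin lists. The share called with neither falls from 55.3% in the weakest class to 0 of 9324 regions in the strongest.

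Just outside the rule stood 4418 regions called with DMSO, Corin and ATRA but not the combination, and 3953 called with DMSO, Corin and the combination but not ATRA. The first had a −log10 p in the ATRA list from 2.23 upward, with a median of 21.5, and the second one in the combination list from 2.09, with a median of 9.33. Just inside, the weakest ATRA-absent regions had a −log10 p of 2.79 with DMSO and 2.01 with Corin. The 4 lists did not end at the same value: the lowest −log10 p was 2.79 for DMSO and 2.00 for each of the others. Peak numbers in the names of the DMSO list end at exactly 300000, and whether its number of peaks was capped, which would set its limit, is not given in the sources used here. The most frequent background pileup was 12.8 with DMSO, 9.12 with ATRA, 13.1 with Corin and 13.9 with the combination, and the lists merged into 116563, 113914, 101851 and 94917 regions. The part of these differences in the calls was not tested.

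ATRA-absent regions mostly lay more than 500 bp from regions called with ATRA or the combination, whose overlap the rule excludes. The median distance to the nearest region called with ATRA or the combination was 4935 bp, and 591, or 8.64%, had one within 500 bp. Their nearest neighbour of the same class was at a median of 55965 bp, and 1043 of them, 15.3%, had another within 10 kb. These distances were not taken for other calling patterns, so that nothing particular to ATRA-absent regions is read from them.

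The AP-1 consensus was found in 1384 of the 6837 summit windows, 20.2% (95% Wilson interval 19.3 to 21.2). It was found in 4.24% of the regions called with DMSO and ATRA only, in 3.37% of the 5165 called with ATRA and the combination only, in 10.7% of those called in all 4 lists and in 9.53% of all regions. The reversed consensus, which has the same base composition, was found in 4.50% of ATRA-absent windows and between 2.90% and 3.68% of the others named. The AP-1 consensus itself was found in 3.54% of 35116 promoter windows of 200 bp from RefSeq (GRCh38.p14). Among other patterns, the AP-1 share was 19.3% (95% Wilson interval 18.1 to 20.6) in regions called with DMSO, Corin and the combination. It was 16.8% with Corin only, 15.6% with Corin and the combination only, 13.0% with DMSO, Corin and ATRA, and 6.36% with DMSO only. A high share was thus not particular to ATRA-absent regions. The rule did not use sequence, but with 1 list per group these differences between patterns have no replicate check.

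**Figure D2:**
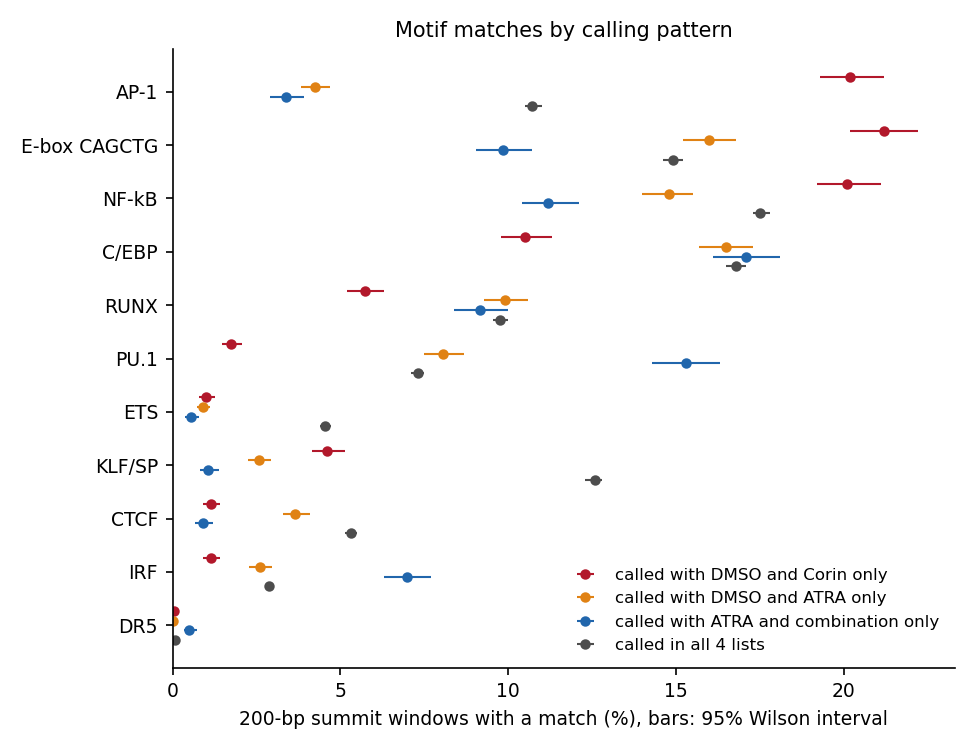
Points give the percent of summit windows of 200 bp with a match to each of 11 motifs, bars the 95% Wilson interval, and colours the calling pattern of the regions. AP-1 stands at 20.2% for regions called with DMSO and Corin only and at 10.7% for those called in all 4 lists, and PU.1 at 1.74% and 7.30%.

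AP-1 matches lay close to the summit. Within 200 bp on either side, 1832 matches were found in ATRA-absent regions, and 1204 of them, 65.7% (95% Wilson interval 63.5 to 67.9), were centred within 50 bp. The same share was 54.8% in regions called in all 4 lists and 33.7% in those called with DMSO and ATRA only, and 37.6% for the reversed consensus in ATRA-absent regions. The base before TGA was T in 6.54% and A in 38.7% of 3042 flanks of matches in ATRA-absent regions. In regions called in all 4 lists it was T in 10.4% and A in 32.4% of 15332 flanks. More than 1 match was found in 1.92% of ATRA-absent windows, in 0.778% of those called in all 4 lists and in 0.0603% of those called with DMSO and ATRA only.

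**Figure D3:**
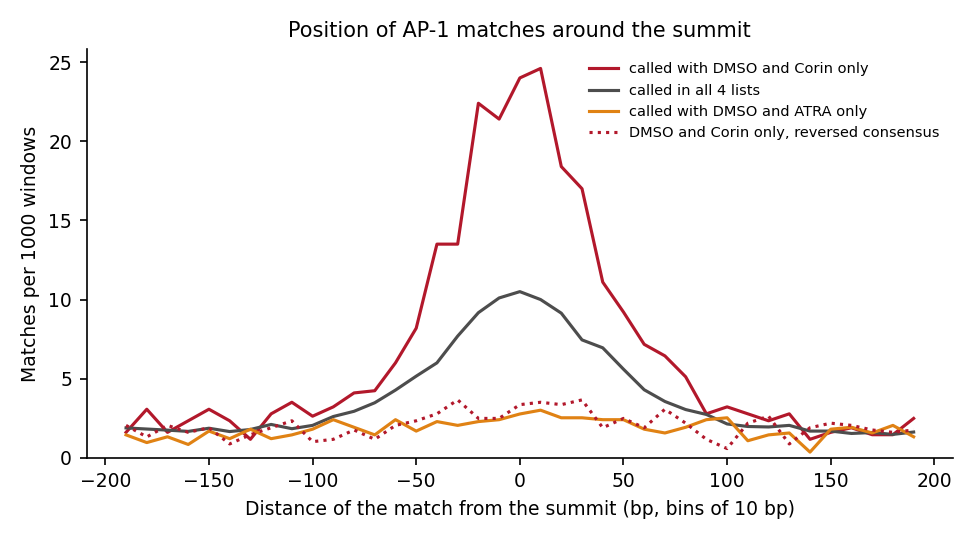
Lines give AP-1 matches per 1000 windows in bins of 10 bp, by distance from the summit in bp, for 3 calling patterns, with the reversed consensus dotted. In the regions called with DMSO and Corin only the line peaks at 24.6 near the summit.

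The AP-1 share was higher in stronger ATRA-absent regions up to percentile 60 of the DMSO list. It was 9.04% of 3572 regions below percentile 20, 29.9% of 2334 between 20 and 40, 39.1% of 834 between 40 and 60, and 36.8% of 95 between 60 and 80. In regions called in all 4 lists the same rank classes held 6.99%, 10.7%, 9.77% and 11.2%, and in those called with DMSO and ATRA only 4.15%, 4.65%, 3.33% and 5.10%. By the lower rank of both lists, 9.19% of ATRA-absent regions below percentile 20 held a match (409 of 4449) and 59.2% of those between 40 and 60 (264 of 446). The 1384 regions with a match had a median −log10 p of 16.4 with DMSO and 23.8 with Corin, and the 5453 without one 8.19 and 7.24.

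**Figure D4:**
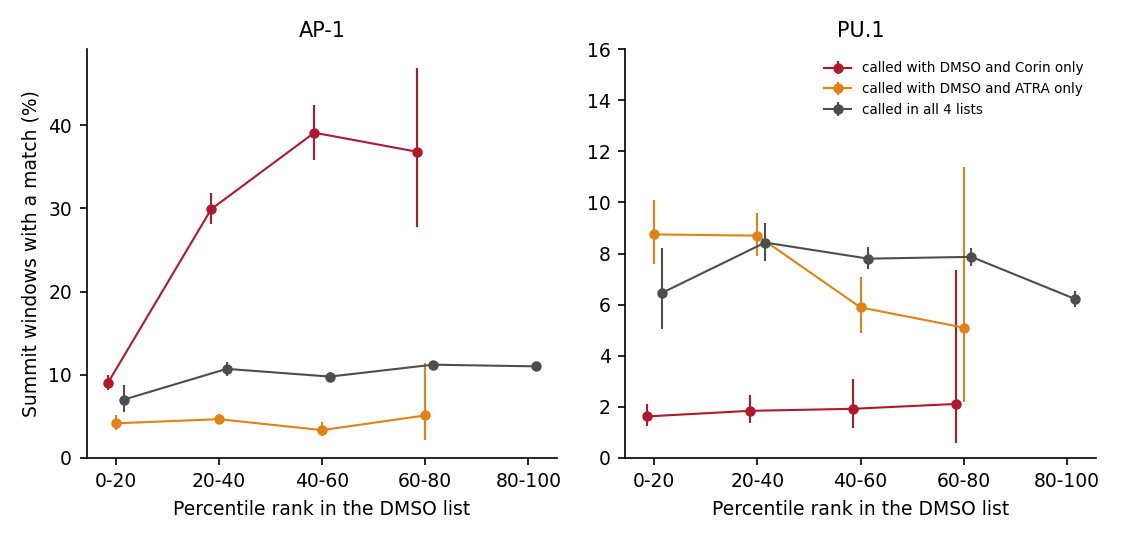
Points give the percent of summit windows with an AP-1 match (left) and with a PU.1 match (right) by percentile rank in the DMSO list, with 95% Wilson intervals. AP-1 rises from 9.04% to 39.1% in regions called with DMSO and Corin only, while PU.1 in the same regions stays between 1.62% and 2.11%.

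Base composition moved with the calling pattern. Mean GC content of the summit windows was 53.4% (SD 8.58 over regions) in ATRA-absent regions, 47.9% in those called with DMSO and ATRA only, 43.9% in those called with ATRA and the combination only and 52.4% in those called in all 4 lists. Over whole lists it was 52.0% with DMSO, 49.7% with ATRA, 52.2% with Corin and 51.7% with the combination. Within classes of GC content the AP-1 share of ATRA-absent regions was 38.9% below 40% GC, 34.2% from 40 to 50%, 16.4% from 50 to 60% and 6.06% above. In the same classes, regions called in all 4 lists held 12%, 13.3%, 12.2% and 4.29%, and those called with DMSO and ATRA only 2.73%, 4.89%, 4.39% and 3.06%. ATRA-absent regions were thus above both at each GC level.

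The motif of the myeloid factor PU.1 (GAGGAAGT) was found in 1.74% of ATRA-absent windows, against 8.06% with DMSO and ATRA only, 15.3% with ATRA and the combination only and 7.30% in all 4 lists. By GC class it was 2.43%, 1.96%, 1.93% and 1.01%, against 9.06%, 9.16%, 7.76% and 3.04% in all 4 lists and 16.4%, 14.4%, 16.4% and 12.9% with ATRA and the combination only. Among patterns not called with ATRA, PU.1 was found in 1.47% with Corin only and 2.25% with DMSO only. It was found in 2.47% with Corin and the combination only and 1.69% with DMSO, Corin and the combination. A low PU.1 share was thus not particular to ATRA-absent regions, where its reversed consensus stood at 1.33%. C/EBP (TTNNGCAA), bound by factors of granulocyte and monocyte development, was found in 10.5% of ATRA-absent windows and 16.5% with DMSO and ATRA only. With ATRA and the combination only it was 17.1%, and in all 4 lists 16.8%. By GC class its share of ATRA-absent windows was 24.3%, 16.8%, 9.12% and 2.32%, against 31.3%, 23.7%, 13.2% and 3.57% in all 4 lists. With ATRA and the combination only it was 22.2%, 17%, 9.91% and 4.84%, so that the lower C/EBP share overall did not hold below 40% GC, and the next 2 classes differed by less than their intervals. Regions called with DMSO only held C/EBP in 8.72% and with the combination only in 7.09%, below the ATRA-absent 10.5%. RUNX (TGTGGTT) was found in 5.73% of ATRA-absent windows and 9.77% of those called in all 4 lists. Below 40% GC it was 11.1%, against 14.7% in all 4 lists. In that class it was 12.4% with DMSO and ATRA only and 9.68% with ATRA and the combination only. In the same rank classes as for C/EBP, RUNX was found in 3.86%, 7.11%, 9.23% and 11.6% of ATRA-absent windows. In all 4 lists it was 7.73%, 9.73%, 9.70% and 10.6%, so that from percentile 40 to 80 the shares differed by less than their intervals. The IRF motif was found in 1.14% of ATRA-absent windows, against 6.97% with ATRA and the combination only, where its reversed consensus stood at 5.50%. DR5, the repeat bound by retinoic acid receptors with RXR, was found in 3 ATRA-absent windows, or 0.0439%, and in 0.484% of those called with ATRA and the combination only.

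Among the other motifs, the E-box CAGCTG was found in 21.2% of ATRA-absent windows and 14.9% of those called in all 4 lists. By GC class it was 7.03%, 16.5%, 22.2% and 28.1%, against 6.66%, 13.2%, 20.1% and 15.2%. With DMSO and ATRA only, the E-box shares in these GC classes were 6.13%, 13.3%, 22.6% and 26.7%. The intervals of ATRA-absent windows and of that pattern overlapped except from 40 to 50% GC. The NF-kB motif was found in 20.1%, but its reversed consensus in 27%, so that its share was below that of its own composition control. The NFE2/BACH motif, which contains the AP-1 consensus, was found in 1.16%. The promoter motifs KLF/SP (GGGCGGG) and ETS (CCGGAAG) stood at 4.61% and 0.995%, against 12.6% and 4.54% in all 4 lists, and CTCF, the insulator factor, at 1.14% against 5.31%. By rank in the DMSO list up to percentile 80 the direction of KLF/SP turned, with 4.42%, 4.41%, 5.52% and 8.42% of ATRA-absent windows against 2.01%, 3.07%, 3.28% and 6.12% in all 4 lists. Above percentile 80, where 2 ATRA-absent regions stood, KLF/SP was found in 27.3% of the regions called in all 4 lists and ETS in 9.41%. Below it the ETS shares were 0.896%, 0.943%, 1.44% and 2.11% against 1.27%, 1.24%, 1.57% and 2.35%. In those rank classes the CTCF shares were 0.392%, 1.71%, 2.88% and 0% against 0.318%, 3.07%, 6.65% and 7.76%. The CTCF share of ATRA-absent windows was thus not lower below percentile 20. With ATRA and the combination only, CTCF stood at 0.891%, also low. A match describes letters and shows no binding, and all motifs were searched on both strands.

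Most ATRA-absent regions lay away from promoters. Within 1 kb of an annotated start stood 1071, or 15.7% (95% Wilson interval 14.8 to 16.5), while 706 lay in exons, 3027, or 44.3%, in introns and 2033, or 29.7%, between genes. The promoter share was 13.5% with DMSO and ATRA only, 12.7% with ATRA and the combination only, 30.2% in all 4 lists and 20.7% over all regions. Below percentile 20 of the DMSO list it was 17.1% for ATRA-absent regions and 16.4% for those called in all 4 lists, and between percentiles 40 and 60 it was 12.9% and 15.7%. Above percentile 80 it was 52.5% for regions called in all 4 lists, a class in which 2 ATRA-absent regions stood. The median distance to a coding start was 26144 bp, against 22212 bp over all regions.

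Of the regions within 10 kb of actin and adhesion genes, 24 of 466 were ATRA-absent, at 11 of 20 genes. Their share of 5.15% (95% Wilson interval 3.49 to 7.55) was near the 4.08% (4541 of 111257) over all coding genes, so that the count is no result about the list. Of those 24, 8 lay at TNS3, a focal adhesion protein, where the −log10 p with DMSO ran from 3.98 to 10.3. CTTN, cortactin, held 1 region with 50.3 with DMSO and 96.4 with Corin and 2 AP-1 matches. MYH9, a non-muscle myosin heavy chain, had 19.8 and 64.2, and MYO1E, an unconventional myosin, 16.2 and 56.6, each with 1 match. MYO10, another myosin, had 60.3 and 16.6, and no match. The lists were written with earlier results of these data known, so that no list is independent evidence of its direction, and the shares were not tested.

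AP-1 sites at 3 actin genes and at the progenitor genes FLT3 and ETV6 are printed to show the flanks of the match, and were chosen after their values were seen. Each is 27 bp on the plus strand of hg38, with the match in capitals.
CTTN, chr11:70399968-70399994: accgtgtgggTGAGTCActggctccag
CTTN, chr11:70399990-70400016: tccagagcacTGAGTCAgtcctgtttc
MYH9, chr22:36365158-36365184: gagctcataaTGAGTCAgtcacagacg
MYO1E, chr15:59168679-59168705: ggtatgatcaTGACTCAttgcagcctt
FLT3, chr13:28037566-28037592: gatcaccatgTGAGTCAtatgcccatt
ETV6, chr12:11814545-11814571: gtgtgtgttgTGAGTCAtgcctgggtc

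Stem and progenitor genes had 8 ATRA-absent regions of 323, 2.48% (Wilson interval 1.26 to 4.81), at 7 of 18 genes. That interval covers the 4.08% over all coding genes, so that the count is no result about the list. FLT3, a receptor kinase of progenitors, held an intronic region with a −log10 p of 23 with DMSO and 75.1 with Corin, and ETV6, an ETS repressor, one with 14.6 and 92.7. RUNX1, a master regulator of blood formation, held 1 of 105 regions near it, with 23.7 and 6.38. MYB, a progenitor transcription factor, held one with 33.9 and 45.3, and ERG one with 47.9 and 27.6. At MYC, a driver of growth, 2 of 9 regions were ATRA-absent, with 62.8 and 41.7 at the stronger.

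Cell cycle genes had 11 of 208 regions, 5.29% (95% Wilson interval 2.98 to 9.22), at 6 of 20 genes, an interval that also covers the share over all coding genes. RB1, the retinoblastoma tumour suppressor, had 4, the strongest with a −log10 p of 22.8 with DMSO and 41.7 with Corin, and CDK6, a kinase that inactivates RB1, had 3, up to 16.3 and 5.50. A region near CCND2, a D-type cyclin, had 41.5 with DMSO but 5.12 with Corin, and one at CCND3 had 14.1 and 2.05. A region this weak in 1 list lies near that list's calling limit.

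Genes of AP-1 and retinoid signalling had shares whose intervals cover the 4.08% over all coding genes. Of 12 AP-1 factor genes, FOS had a region 7579 bp from its start with 23.4 and 22.5 and FOSL2 an intronic one with 32.2 and 18.5, together 2 of 74 regions, 2.70% (95% Wilson interval 0.744 to 9.33). AP-1 regulated genes had 2 of 120, both in VEGFA, and genes of MAPK feedback 3 of 120. Genes of the retinoic acid response had 4 of 191, 2.09% (0.817 to 5.26): CD38, an ectoenzyme induced by retinoids, with 17 and 17.5, PRDM1, a transcriptional repressor, with 29.2 and 30.6, and weak ones at CYP26B1 and RARB. Of 25 myeloid differentiation genes, none had an ATRA-absent region within 10 kb, 0 of 151, which allows up to 2.48% by the Wilson interval. Within 50 kb, 17 of 365 regions near them, 4.66%, were ATRA-absent, against 4.20% for all coding genes. At that distance the AP-1 factors had 6 of 229, 2.62%, at 6 of 12 genes, and the retinoic acid response 13 of 395, 3.29%, at 10 of 20.

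Across the genome, 4075 coding genes had an ATRA-absent region within 10 kb, and 3298 had a region called with ATRA and the combination only. Both kinds stood at 958 genes, 23.5% of the first and 29.0% of the second, while 16.5% and 20.4% of all 20007 coding genes had the other kind. Genes with more regions near them can hold both kinds more often, and its part was not tested. LYST, which encodes a regulator of lysosomal trafficking, held the most inside its body, 10 of 58 regions. DNAH7, an axonemal dynein gene, held 9 of 53, GPC5 9 of 97 and PCCA 9 of 96. COL23A1 held 8 of 72, FGF14 8 of 70, MYCBP2 8 of 63, TBC1D5 8 of 142 and TNS3 8 of 65. EIPR1 held 7 of 32. These genes were chosen by the count alone, and the share over all regions was 4.24%. At TBC1D5, with many regions, the share was 5.63%. GPC5, PCCA, FGF14 and MYCBP2 lie on chromosome 13.

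Chromosome 13 had the highest share, 470 of 7513 regions, 6.26% (95% Wilson interval 5.73 to 6.83), followed by chromosomes 18 with 5.68% and 2 with 5.64%. The lowest was 2.86% on chromosome 9, apart from Y, where 3 regions were called. Median background in the DMSO list was 16.5 on chromosome 13, the lowest of the autosomes, and 28.6 on chromosome 19, where the share was 4.28%. On chromosome 13, 11.9% of the ATRA-absent windows held an AP-1 match, and on chromosome 5, with a share of 3.19%, 31.5% did. Copy number and its part in these values were not tested.

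**Figure D5:**
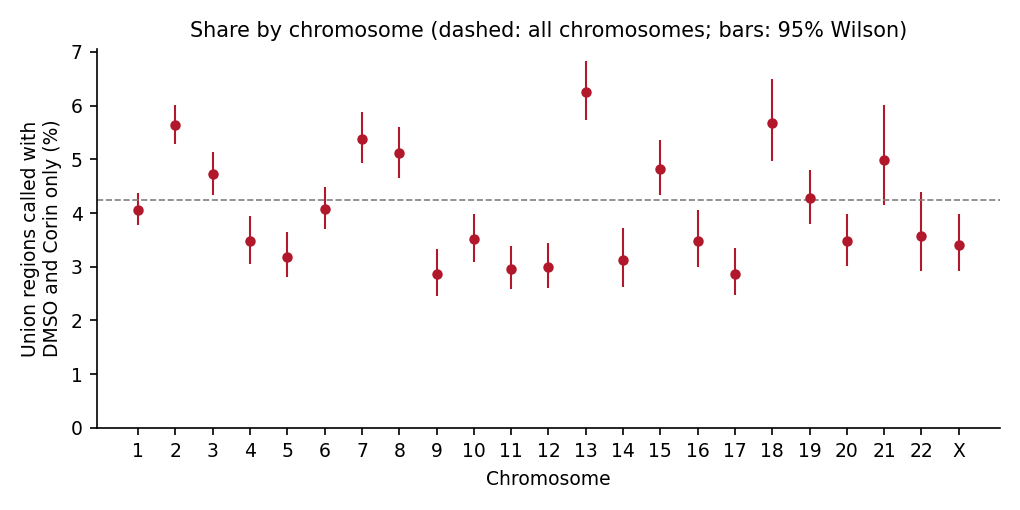
Points give the percent of regions on each chromosome that were called with DMSO and Corin only, bars the 95% Wilson interval and the dashed line the share over all chromosomes, 4.24%. Chromosome 13 stands highest at 6.26% and chromosome 9 lowest at 2.86%, with Y not drawn.

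Promoters of 8 of 10 monocytic and myeloid genes were called in the DMSO list, SPI1 and CEBPA among them, while those of MPO and FCGR1A were not. Of 4 T cell genes, CD3E, CD3D and CD3G were not called and CD8A was, at percentile 81.0. Promoters of 3 of 4 B cell, 1 of 4 erythroid and 4 of 5 epithelial and fibroblast genes were called. The calls thus did not set the myeloid genes apart from the B cell or the epithelial and fibroblast genes. They are no check of the cell line.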

How the data were processed

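Chromatin accessibility was measured in 8 ATAC-seq samples of U-937, 2 per group, grouped per the labels. The authors deposited 1 narrowPeak list per group with both samples combined. Per the submitters' processing notes, cutadapt, Bowtie2, SAMtools, Picard and MACS2 were used with build hg38, without roles, order or settings. In the deposited lists the fold is a ratio over local background, p and q are −log10 values, and the score was not used. The deposited summit is a distance in bp from the peak start. These values rank regions only within their own list. Read depth is unknown, and 0 per-sample columns were left out.

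Peaks overlapping by at least 1 bp were merged over the 4 lists. GENCODE release 44 gave genes. Pileup and background were solved from p and fold, taking p as a Poisson probability. For 24 motifs, windows of 200 bp at the strongest DMSO summit were searched, or, for regions absent from that list, at the summit of the list in which they rank highest. Intervals are 95% Wilson. The scripts were tested on simulated data (Python 3.11.15, pandas 2.3.3, scipy 1.17.1).

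The regions, lists and motifs were chosen with earlier results of these data known. Named were the 20 ATRA-absent regions with the highest lower rank, windows of the first 8 of them outside chromosome 8, the 10 coding genes with most such regions in the body, and listed genes with one within 10 kb, of which examples are given and 1 is not reported here. Alternatives were stricter q limits, merging within 150 bp, 500 bp without an ATRA or combination peak, lists of equal length, absence from 1 ATRA list, the stronger 50% of both lists, 50% overlap, other promoter limits, windows, summits and distances.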

Additional observations from a re-analysis of the deposited data

How the results depend on the processing

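No paired analysis was possible because each group had 1 list with both replicates combined, and for the same reason no replicate could be left out. The count of 6837 regions was 4044 with a −log10 q of at least 5 in all lists, 3346 with that limit in the DMSO and Corin lists only, 4493 with lists of equal length and 166 in the stronger 50% of both lists. The second and the fourth are subsets of the 6837. The first also drops ATRA and combination peaks, which lets regions in. The third also drops ATRA peaks, with the same effect, but no combination peaks, as the combination list is the shortest. It was 10790 with absence from the ATRA list only and 11255 with absence from the combination list only. The AP-1 share of 20.2% was, in the order of the first 4 settings, 31.1%, 33.7%, 29.8% and 65.7%, and 17.4% with absence from the combination list only. It was 15.9% and 23.8% with windows of 100 and 400 bp and 21.4% at the Corin summit. The promoter share of 15.7% was 14.7%, 14.2%, 14.1% and 13.9% in the order of the same first 4 settings, 25.8% with a limit of 2.5 kb and 4.83% with starts of coding genes only. Near listed genes stood 54 regions within 10 kb and 123 within 50 kb. Merging within 150 bp, 500 bp without an ATRA or combination peak and 50% overlap gave 6754, 6246 and 7378 regions. Beyond these, the cause of the moves was not tested. Depth is unknown, so regions near a calling limit cannot be weighed.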

Other observations

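The AP-1 and PU.1 shares differed among regions with other calling patterns, given here as values without a test. Regions called with Corin only (12977) held an AP-1 match in 16.8% of windows and a PU.1 match in 1.47%, and those called with Corin and the combination only (2428) in 15.6% and 2.47%. Those called with DMSO only (16454) held them in 6.36% and 2.25%, with ATRA only (18378) in 3.4% and 11.8%, and with the combination only (6343) in 3.94% and 3.0%. Mean GC content of the same windows was 52.4%, 52.4%, 53.6%, 44.4% and 54.0%.

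Of the regions called with DMSO, Corin and 1 ATRA treatment, those also called with the combination held an AP-1 match in 19.3% of windows and a PU.1 match in 1.69%, and those also called with ATRA in 13.0% and 4.01%. Their mean GC content was 54.3% and 48.6%.

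Dense clusters of ATRA-absent regions did not always hold AP-1 matches. The interval chr7:1000001-2000000 held 20 of them among 187 regions with 0 AP-1 matches, and chr13:113000001-114000000 held 20 among 238 with 3 that had one. The highest peak number in the names was 300000 with DMSO, 255773 with ATRA, 295973 with Corin and 287007 with the combination.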
